A study of Rattus norvegicus with 180 samples.

Results

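The miR-29 family was described here through its 3 guide strands, rno-miR-29a, rno-miR-29b and rno-miR-29c, which are 3 of the 717 miRNAs on the array. The members were taken by name from the probe annotation and the normalized table, a rule that uses no measured value, although the family itself was picked with earlier results of these data known, and no second version of any of them was present. Male Sprague-Dawley rats of 10 weeks gave 55 organs each from the 3 animals perfused with saline before collection (rats 4, 5 and 6), which is 165 arrays. A further 15 arrays held liver, kidney, lung, heart atrium and interventricular septum from 3 untreated animals that were not perfused (rats 1, 2 and 3). Total RNA of each sample was labelled with Cy3 and hybridised to a one-colour Agilent array. By the study's methods the intestine samples were mucosal epithelium scraped from the wall, the liver sample was the left lateral lobe and the vessels were abdominal. A level is the sum over all cell types in such a sample, and fewer cells of a type cannot be told apart from less RNA per cell. No organ was treated and no genotype differed, so the comparisons were between organs and, in 5 organs, between perfused and not perfused rats.

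miRNAs are short RNAs that guide Argonaute proteins to partly complementary sites in messenger RNAs, mainly through the seed, bases 2 to 8 from the 5′ end, and lower the stability and translation of those messages. The miR-29 family is best known for repressing messages of the extracellular matrix, among them several collagens and elastin, and of the DNA methyltransferases of the DNMT3 type. It is abundant in mature neurons, and low miR-29 is a known feature of fibrosis in heart and other organs. Each precursor hairpin yields a guide strand, which is the form that usually enters Argonaute, and a passenger strand, marked with a star in the names used on the array.

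The mature sequences are shown first because the members share a seed and differ by few bases, which bears on what their probes can tell apart. They are the RefSeq sequences of the GRCr8 annotation, 5′ to 3′, with the seed in capitals:
rno-miR-29a: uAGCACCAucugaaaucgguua
rno-miR-29b: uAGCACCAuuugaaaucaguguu
rno-miR-29c: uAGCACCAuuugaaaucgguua
Of 693 mature miRNAs in that annotation table, these 3 carried the seed AGCACCA. Counted from the 5′ end, miR-29a and miR-29c differ at a single base, C10U, whereas miR-29b differs from miR-29c at A18G, G21U and U22A over the 22 bases they share and has 1 base more. The guide strand of miR-29a lies at chr4:60617968-60617989 on the minus strand, within the Mir29a hairpin, and the Mir29b1 hairpin lies 291 bases upstream of it on the same strand. Mir29b2 and Mir29c lie 447 bases apart on the plus strand of chromosome 13, with the miR-29c guide at chr13:109099412-109099433. Mir29b1 and Mir29b2 give the same mature sequence (chr4:60618342-60618364 and chr13:109098882-109098904), so a miR-29b level is the sum of both clusters. Probe sequences were not given in the sources used here, and how far the probes for miR-29a and miR-29c separate a single base was not tested.

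Every member was well above background on all 180 arrays. Each was read by 2 probe sequences and by 16 to 20 spots per array after outlier removal, with a median spread between spots of 4.59% for miR-29a, 5.94% for miR-29b and 4.35% for miR-29c, and no miRNA spot was saturated. Between 86 and 244 miRNAs were detected per array. Levels are given as scaled signal, the processed spot intensity divided by the 75th percentile of 37 miRNAs detected on every array and multiplied by 2118. Because the family belongs to those 37 miRNAs, a member was itself the 75th percentile on 39 of 180 arrays (miR-29a on 25, miR-29b on 11, miR-29c on 3) and then reads exactly 2118, so that its spread there is not a measurement. With the family left out of the scaling set, the organ means correlated with those given here at r = 0.991, 0.997 and 0.992 for miR-29a, miR-29b and miR-29c (55 organ means each). Signals of different probes were not set against each other, and which member led in an organ was read from log2 ratios between members on the same array, each relative to the mean of that ratio over the 55 organs. A factor common to an array cancels in these ratios, and so does a constant difference in brightness between probes. The 2 probe sequences agreed over the perfused arrays with r = 0.944 for miR-29a, 0.995 for miR-29b and 0.998 for miR-29c, but the log2 gap between those of miR-29a reached -2.76 at its widest and was not constant, so ratios with miR-29a depend in part on the probe.

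The 3 members spanned very different ranges over the 55 perfused organs. Organ means of miR-29a ran from 939 in aorta to 5245 in thalamus, a 5.58-fold range. miR-29b ran from 297 in musculus soleus to 7063 in thalamus, a 23.8-fold range, and miR-29c from 235 in bone marrow to 2919 in Pituitary gland, a 12.4-fold range. The SD of the organ means on the log2 scale was thus 0.58 for miR-29a, 1.12 for miR-29b and 0.83 for miR-29c, against median SDs between rats of 0.12, 0.15 and 0.23. Among the 37 miRNAs detected on every array, whose median SD over organs was 0.86, miR-29b ranked 9, miR-29c ranked 22 and miR-29a ranked 28. All 3 differed over the organs in limma's F test with Benjamini-Hochberg adjustment (adjusted p = 1.72e-49, 1.38e-66 and 2.17e-46), but so did 99.7% of the 345 miRNAs tested, and their F values ranked 246, 141 and 273.

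In order of level, neighbouring organs mostly could not be separated. The values of 3 rats in neighbouring organs failed to overlap in 1 of 54 neighbour pairs for miR-29a, in 2 of 54 for miR-29b and in 0 of 54 for miR-29c. This count was not made for the other miRNAs. It therefore limits how the order can be read and is not a trait of the family. For miR-29b the separated pairs were thalamus over cerebral cortex and vein over ischial nerve. The upper end was shared: thalamus, cerebral cortex, hippocampus and Pituitary gland were the 4 highest organs for miR-29b and were among the 5 highest for the other 2 members. miR-29a had pancreas in that set (4977 ± 302, SD, n = 3) and miR-29c had eyeball (2167 ± 215), whereas miR-29b read 1421 ± 20.7 in pancreas and 1657 ± 225 in eyeball, both below its own median organ of 1834. The lower end differed more. For miR-29a the lowest organs were aorta, bone marrow and musculus soleus, for miR-29b the 3 limb muscles, and for miR-29c bone marrow, skin and thymus (327 ± 56.4 in skin and 339 ± 91.3 in thymus). Pars lumbalis of the spinal cord had the widest spread between rats for every member, with miR-29b at 1250, 4356 and 2821 in rats 4, 5 and 6.

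**Figure D1:**
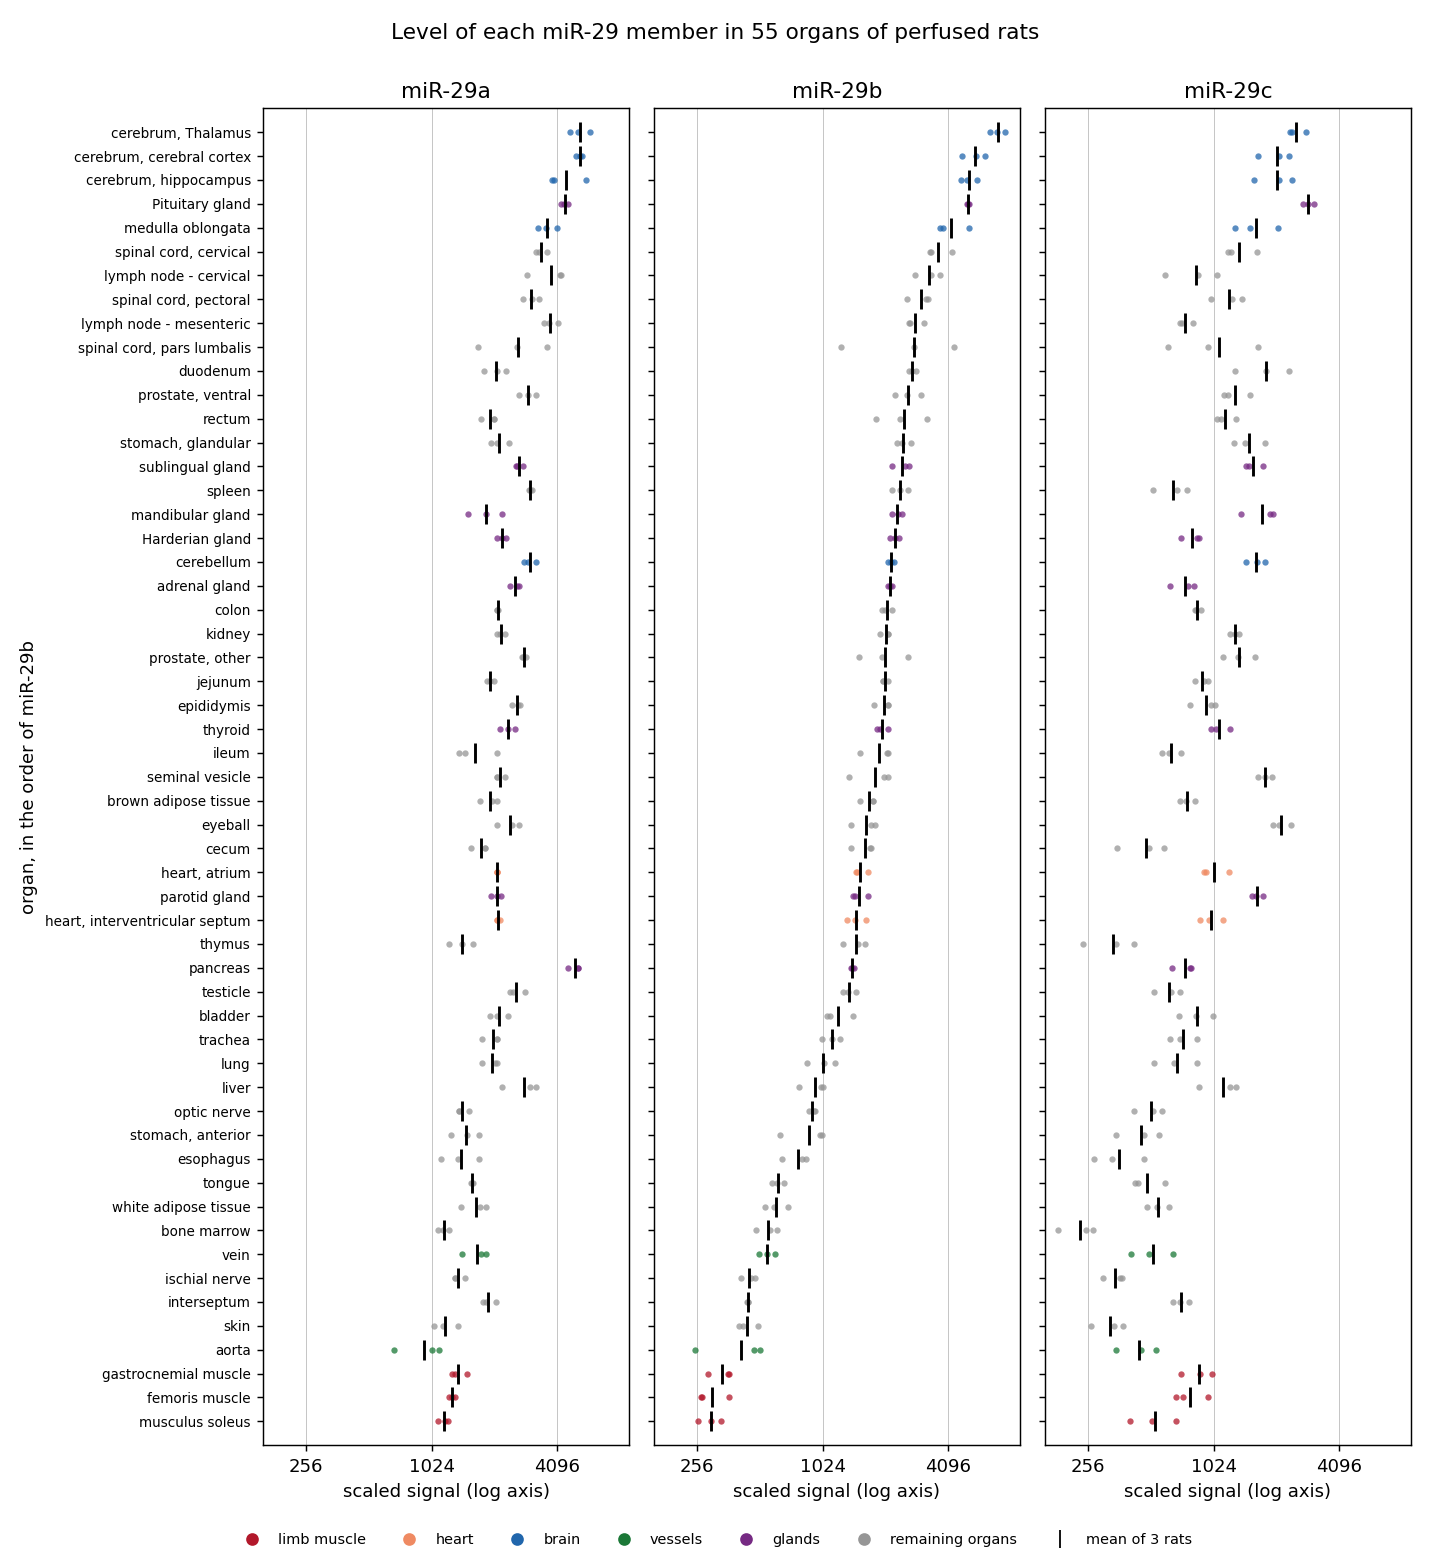
Scaled signal of miR-29a, miR-29b and miR-29c (log axes) in each of 3 perfused rats (points) with their mean (black bars) for 55 organs, listed in the order of miR-29b and coloured by organ class. Thalamus, cerebral cortex, hippocampus and Pituitary gland stand at or near the top for all members, the limb muscles are lowest for miR-29b alone, and signals are not comparable between panels.

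In limb muscle (femoris, gastrocnemial and musculus soleus, 9 arrays) the members parted most clearly, with miR-29b far below its level elsewhere, miR-29a lower by less, and miR-29c close to its usual level. miR-29b read 271, 366 and 268 in femoris muscle, 360, 365 and 289 in gastrocnemial muscle, and 300.0, 333 and 259 in musculus soleus of rats 4, 5 and 6. Of the 156 other perfused arrays, a single array, from aorta, was below the highest of these 9 values. Against the other organs miR-29b fell by 2.42 on the log2 scale (SE 0.08, geometric mean 310 against 1656), limma adjusted p = 3.75e-55, which placed it 7 from the lowest of 345 miRNAs tested. This contrast called 87.2% of all miRNAs tested, 65.2% as lower and 22% as higher, so its call alone sets miR-29b apart less than its size does.

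miR-29a in limb muscle ranged from 1099 to 1513 and fell by 0.84 (SE 0.06), adjusted p = 3.69e-26, with 24 of 156 other arrays below its highest value. This difference was -0.41 when all miRNAs set the scale and -0.39 in the authors' table. miR-29c ranged from 409 to 1009, with 90 of 156 other arrays below its highest value, and fell by 0.35 (SE 0.09), adjusted p = 2.45e-04, a direction that turned to 0.09 and 0.11 above the other organs when all miRNAs set the scale or the authors' table was used. Without rat 6 the miR-29c difference was -0.23 and was not called. The miR-29a to miR-29b ratio rose by 1.57 (SE 0.06) on the log2 scale, a 2.98-fold shift (limma adjusted p = 3.78e-48, with 86% of miRNAs called in ratio to miR-29a). It rose by 1.64, 1.33 and 1.76 in rats 4, 5 and 6. The 3 limb muscle arrays titled rat 5 are labelled rat 6 in a second label, and without the 8 arrays with such a conflict the rise was 1.68 (SE 0.07) and the miR-29b level -2.50 (SE 0.09). The miR-29b to miR-29c ratio fell by 2.07 (SE 0.07), a 4.19-fold shift (adjusted p = 2.95e-54, with 98.8% of miRNAs called in ratio to miR-29b). On the array of every rat in these muscles, miR-29b stood lowest of the 3 relative to its own mean over organs.

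miR-29c therefore led in limb muscle, with the miR-29a to miR-29c ratio lower than elsewhere by 0.49 (SE 0.08), adjusted p = 2.97e-08. Relative to each rat's own means, it led in all 3 rats in femoris and gastrocnemial muscle and in 2 of 3 rats in musculus soleus, where the gap to miR-29a was 0.16 on the log2 scale and the 4 pairings of single probe sequences gave -0.24 to 0.03 for miR-29a over miR-29c. Musculus soleus was also the muscle with the smallest shift of the miR-29b to miR-29c ratio, which stood at -1.93, -1.41 and -1.43 relative to its mean over organs, against -2.19, -2.16 and -2.09 in femoris muscle, a difference between muscles that was not tested. The organ closest to limb muscle in both ratios with miR-29b was the one labelled interseptum. There miR-29b read 443, 452 and 450 (mean 448 ± 4.41), a level at which skin (444) and aorta (415) were lower still, and the miR-29a to miR-29b ratio was 1.55 ± 0.09 above its mean. Of 156 other arrays, 6 reached the lowest limb muscle value of that ratio, and they came from interseptum, pancreas and vein. The muscle markers miR-1, miR-133a, miR-133b and miR-206 were detected on all 9 limb muscle arrays, with a summed signal of 61991 to 170324, and on the interseptum arrays they summed to 90208 to 116844. With 1 mean per organ as the unit, which asks whether 3 muscles differ from 52 other organs, the miR-29b level (adjusted p = 4.29e-03) and both of its ratios (adjusted p = 3.52e-03 and 1.73e-04) stayed called, and the miR-29a level, the miR-29c level and the miR-29a to miR-29c ratio did not (adjusted p = 0.21, 0.829 and 0.426).

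In heart (atrium and interventricular septum, 6 arrays) no member's level was called different from the other organs. miR-29b read 1478, 1499 and 1688 in atrium and 1341, 1465 and 1650 in septum, near the middle of the organ order at ranks 32 and 34. miR-29c read 923, 945 and 1212 in atrium and 879, 972 and 1139 in septum. miR-29a was itself the scaling percentile on 5 of the 6 arrays, and with the family left out of the scaling set it read 2095, 1861 and 1977 in atrium. The differences on the log2 scale were -0.06 (95% interval -0.20 to 0.08) for miR-29a, 0.00 (-0.18 to 0.19) for miR-29b and 0.18 (-0.03 to 0.40) for miR-29c, with limma adjusted p of 0.452, 0.968 and 0.108, in a contrast that called 86.4% of miRNAs, 13.3% as higher and 73% as lower. For miR-29a the interval and p are no test of its heart level, since the scaling fixed 5 of the 6 values. With the family left out of the scaling set, the miR-29a difference was -0.14. Heart levels depended on the scale, since taking the percentile over all miRNAs put the members 1.41, 1.47 and 1.65 above the other organs. On heart arrays that percentile rests on miRNAs that were not detected, so it is a weak scale there.

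The ratio differences in heart were small as well. The miR-29a to miR-29b ratio differed by -0.06 (95% interval -0.21 to 0.08), adjusted p = 0.461, where 70.1% of miRNAs were called. The miR-29a to miR-29c ratio was lower by 0.24 on the log2 scale (SE 0.10), adjusted p = 0.0252, but the call was lost without rat 5 (adjusted p = 0.0694) and without rat 6 (difference -0.11, adjusted p = 0.403). The miR-29b to miR-29c ratio differed by -0.18 (SE 0.09), adjusted p = 0.0548 with 70.9% of miRNAs called in ratio to miR-29b. It passed the threshold in 7 of 19 alternatives, among them rat as a block (adjusted p = 0.0465). Heart thus lay apart from limb muscle in the ratios with miR-29b: the 6 heart arrays were between -0.22 and 0.15 in the miR-29a to miR-29b ratio and the 9 limb muscle arrays between 1.17 and 1.70, without overlap, although the difference between these 2 classes was not tested. miR-208, a miRNA made from a cardiac myosin gene, was detected on all 6 heart arrays and on 0 of 9 limb muscle arrays. It was 1 of 4 heart markers, with miR-1, miR-133a and miR-499. Together these 4 summed to 14075.5 to 17091.5 in heart and to more, 20071 to 74122, in limb muscle.

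In brain (cerebral cortex, hippocampus, thalamus, cerebellum and medulla oblongata, 15 arrays) all 3 members were higher than in the other organs under every scaling tried, by amounts that depended on the scale. Thalamus had the highest mean of these regions for each member, with miR-29b at 7690, 7024 and 6474, miR-29a at 5885, 5150 and 4699, and miR-29c at 2826, 2369 and 2437. For miR-29a the mean in cerebral cortex was close (5236 against 5245), and its log2 mean was higher (12.354 against 12.350). Cerebellum was the lowest brain region for miR-29a and miR-29b, with miR-29b at 2256, 2118 and 2178. Over the 15 arrays miR-29b ran from 2118 to 7690 with a median of 5057, and 44 of 150 other arrays exceeded its lowest value. miR-29b rose by 1.72 on the log2 scale (SE 0.06), 3.3-fold, with miR-29c at 1.24 (SE 0.07) and miR-29a at 1.02 (SE 0.05), and limma adjusted p of 8.81e-52, 5.18e-33 and 9.73e-42 in that order. Brain called 95.4% of miRNAs tested, 39.7% as higher and 55.7% as lower, and miR-29b, miR-29c and miR-29a ranked 65, 84 and 93 from the highest of 345, so the rise was of an ordinary size for this contrast. When all miRNAs set the scale the rise was 0.15 for miR-29a (adjusted p = 0.0304), 0.85 for miR-29b and 0.36 for miR-29c, and in the authors' table it was 0.26, 0.96 and 0.47. All 3 levels stayed called with 1 mean per organ as the unit (adjusted p = 3.79e-04 for miR-29a, 2.06e-03 for miR-29b and 3.29e-03 for miR-29c).

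miR-29b led in 4 of the 5 brain regions, in all 3 rats each, and miR-29c led in cerebellum, also in all 3 rats. The miR-29a to miR-29b ratio fell by 0.70 (SE 0.05), adjusted p = 1.69e-27 with 97.7% of miRNAs called, and the miR-29b to miR-29c ratio rose by 0.49 (SE 0.06), adjusted p = 3.61e-14 with 95.9% called. With 1 mean per organ as the unit these ratios missed the threshold (adjusted p = 0.0544 and 0.264). Thalamus had the lowest miR-29a to miR-29b ratio of all 55 organs, at -1.01 to -0.93 relative to the mean, and cerebellum lay at -0.02 to -0.17. The miR-29a to miR-29c ratio fell by 0.21 (SE 0.06), adjusted p = 1.30e-03, and this call was lost under normexp background correction and quantile normalization (adjusted p = 0.103 and 0.219). It was also lost with 1 mean per organ as the unit (adjusted p = 0.497). Against the other organs on the same slide, this ratio kept its sign on 3 of 6 slides (-0.21 to 0.16). The 3 spinal cord levels, which were not part of the brain contrast, showed the same leader, with miR-29b first in all 3 rats of each and its means between 2809 and 3668. Neuronal miR-124, miR-9, miR-9* and miR-128 were detected on all 15 brain arrays, with a summed signal of 9464 to 25130.

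In vessels (aorta and vein, 6 arrays) miR-29b was again the member that fell furthest behind. miR-29b read 514, 480 and 250 in aorta and 605, 506 and 554 in vein of rats 4, 5 and 6, miR-29a read 1108, 1030 and 679 in aorta and 1857, 1773 and 1432 in vein, and miR-29c read 541, 461 and 348 in aorta and 654, 413 and 501 in vein. Aorta of rat 6 was the lowest vessel array for every member. The level contrasts were -0.86 (SE 0.07) for miR-29a, -1.76 (SE 0.09) for miR-29b and -0.93 (SE 0.11) for miR-29c, with limma adjusted p of 4.87e-21, 1.47e-34 and 3.37e-13, where 83.8% of miRNAs were called, 73% as lower and 37 of 345 as higher. When all miRNAs set the scale, miR-29b kept its direction but not its call (-0.19, adjusted p = 0.138), and the directions turned to 0.70 and 0.64 above the other organs for miR-29a and miR-29c, as they did to 0.48 and 0.41 in the authors' table. None of the 3 levels stayed called with 1 mean per organ as the unit (adjusted p = 0.796, 0.71 and 0.855), which leaves 2 vessels against 53 other organs, and limma then called 0% of the 345 miRNAs (20 at an unadjusted p under 0.05).

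In the ratios, which do not depend on a common factor per array, miR-29b stood below both other members in vessels. The miR-29a to miR-29b ratio rose by 0.89 (SE 0.07), 1.86-fold, adjusted p = 4.16e-21 with 76.5% of miRNAs called, and the miR-29b to miR-29c ratio fell by 0.82 (SE 0.09), adjusted p = 4.80e-16 with 94.8% called. The rise was 0.83, 0.93 and 0.92 in the 3 rats. With 1 mean per organ as the unit neither ratio was called (adjusted p = 0.603 and 0.364). Within a slide the direction was mixed, since on the 3 slides that held vessels the miR-29a to miR-29b ratio differed from the other organs of that slide by -0.33 to 0.22. The miR-29b to miR-29c ratio differed there by -0.53 to 0.19 and kept its sign on 2 of 3 slides. Among the levels, the sign held on 3 of 3 slides for miR-29a (-0.60 to -0.007). It held on 2 of 3 for miR-29b (-0.80 to 0.32) and on 1 of 3 for miR-29c (-0.27 to 0.13). The miR-29a to miR-29c ratio was not called (0.07, 95% interval -0.13 to 0.26, adjusted p = 0.541). The leader differed between the 2 vessels: miR-29a led in vein and miR-29c in aorta, each in all 3 rats, with miR-29b last in both. The 2 vessels also differed in other markers, with the blood markers miR-451 and miR-144 summing to 165 to 242 in vein and 26.4 to 41.9 in aorta, and the leukocyte markers to 315 to 824 and 100.5 to 140. The part of these cells in the change of leader was not tested. miR-143 and miR-145, abundant in smooth muscle, were detected on all 6 vessel arrays with a summed signal of 7353 to 16344, against 1077 to 1872 in limb muscle.

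Level contrasts also shift with what the rest of the miRNAs do, since the median of all miRNAs tested lay at -0.24 in limb muscle, -0.41 in heart, -0.15 in brain and -0.41 in vessels. Relative to that median, miR-29b stood at -2.18 in limb muscle (-2.30 to -1.86 over 19 settings) and at -1.34 in vessels (-1.61 to -0.14). In limb muscle miR-29a stood at -0.60 (-0.97 to -0.29) and miR-29c at -0.11 (-0.50 to 0.21). The sign of miR-29c turned there with the percentile over all miRNAs and in the authors' table. In brain the members stood 1.17, 1.87 and 1.38 above it for miR-29a, miR-29b and miR-29c, with ranges over settings of 0.40 to 1.67, 1.10 to 2.30 and 0.61 to 1.77. In heart they stood 0.36, 0.42 and 0.60 above it (0.083 to 1.47, 0.14 to 1.54 and 0.32 to 1.71 over settings), although none was called as a level. In vessels miR-29a and miR-29c stood at -0.45 and -0.52, which turned positive with the percentile over all miRNAs, with normexp and in the authors' table. In glands, where the median of all miRNAs was 0.00, miR-29a, miR-29b and miR-29c stood 0.36, 0.66 and 0.59 above it, with ranges over settings of -0.30 to 0.44, 0.048 to 0.83 and 0.021 to 0.78. The lowest values were those with normexp, and miR-29a also stood below the median with the percentile over all miRNAs (-0.040).

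Glands (sublingual, mandibular, parotid, Pituitary, adrenal and Harderian glands, thyroid and pancreas, 24 arrays) had no common leader, and among all classes they spanned the widest range of the miR-29a to miR-29c ratio (-1.63 to 1.68). miR-29b led in 4 of 8, miR-29c in 3 and miR-29a in pancreas alone. The lead of miR-29b held in all 3 rats in Harderian and adrenal gland, and in 2 of 3 rats in Pituitary gland and thyroid, where it was 0.04 and 0.09 on the log2 scale. Over the 4 pairings of single probe sequences, miR-29b over miR-29c ran from -0.09 to 0.12 in Pituitary gland. The leader there thus depended on the probe, whereas thyroid gave 0.09 to 0.10. The muscle markers miR-1, miR-133a, miR-133b and miR-206 summed to 65.0, 79.7 and 11616 on the thyroid arrays, to 61.4, 6128 and 12157 on those of parotid gland and to 107, 1286 and 3396 on those of Harderian gland, against 43.3 to 239 in the other 5 glands. Their part in the values of these 3 glands was not tested. As a class the members were higher than in the other organs by 0.36 (SE 0.04) for miR-29a, 0.66 (SE 0.05) for miR-29b and 0.59 (SE 0.06) for miR-29c, limma adjusted p of 1.85e-15, 7.36e-24 and 4.26e-17 with 89.3% of miRNAs called, 46.1% as higher and 43.2% as lower. Within a slide the direction was mixed. The sign held on 8 of 12 slides for miR-29a (-0.57 to 1.11). For miR-29b (-0.40 to 2.23) and miR-29c (-0.92 to 1.83) it held on 6 of 12 each. The rise of miR-29a turned to -0.21 when all miRNAs set the scale and to -0.04 in the authors' table, and the other 2 were then 0.09 (adjusted p = 0.16) and 0.02 (adjusted p = 0.705) when all miRNAs set the scale. The miR-29a to miR-29b ratio was lower by 0.30 (SE 0.04, adjusted p = 1.38e-11, 90.7% called), the miR-29a to miR-29c ratio by 0.23 (SE 0.05, adjusted p = 3.11e-05), and the miR-29b to miR-29c ratio differed by 0.07 (95% interval -0.02 to 0.16, adjusted p = 0.151, 86.9% called). None of these 6 differences was called with 1 mean per organ as the unit.

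Pituitary gland, the endocrine organ with the strongest signal of miR-29c, read 2890, 3112 and 2756 for miR-29c, 5052, 5123 and 5142 for miR-29b, and 4631, 4290 and 4420 for miR-29a. All 3 were among the 5 highest organs of their member. The salivary glands went another way. In mandibular gland miR-29c led in all 3 rats, with the lowest miR-29a to miR-29c ratio of the 55 organs (-1.63, -1.39 and -0.63), and miR-29a read 1525, 1867 and 2232, below its median organ of 2139 in 2 of 3 rats. In parotid gland miR-29c read 1568, 1759 and 1645 and led by 0.88 on the log2 scale, whereas miR-29b (1689, 1466 and 1438) and miR-29a (1966, 2202 and 2118) were near their means over organs. miR-29c also led in all 3 rats of sublingual gland, by 0.13. In rat 6 the lead of miR-29c over miR-29b in mandibular and sublingual gland held only against the means of that rat, since against the means over all rats the miR-29b to miR-29c ratio was 0.00 and 0.03.

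Pancreas was the opposite case. miR-29a read 4629, 5164 and 5139, the third highest organ mean of that member, miR-29b read 1442, 1421 and 1401 and miR-29c read 788, 802 and 645. Both ratios with miR-29a were high, at 1.26 ± 0.11 over miR-29b and 1.43 ± 0.23 over miR-29c, the latter the highest of all organs. Pancreas arrays were also the dimmest of the series, with a 75th percentile before scaling of 68.0 to 121 and 86 to 108 miRNAs detected, and the part of dimness in these values was not tested. Over the 4 pairings of single probe sequences the miR-29a to miR-29b ratio in pancreas ran from 0.39 to 1.49 and the miR-29a to miR-29c ratio from 0.52 to 1.71, so the direction held for each pairing and the size did not. In femoris muscle the same 4 pairings gave 1.44 to 1.81. Without pancreas the gland contrasts moved to -0.52 for the miR-29a to miR-29b ratio and to -0.46 for the miR-29a to miR-29c ratio, and the rise of miR-29a fell to 0.24. Acinar miR-216a and miR-217 (summed 8950 to 9247) were detected in pancreas and endocrine miR-7a and miR-375 were at 5814 to 6735.

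**Figure D2:**
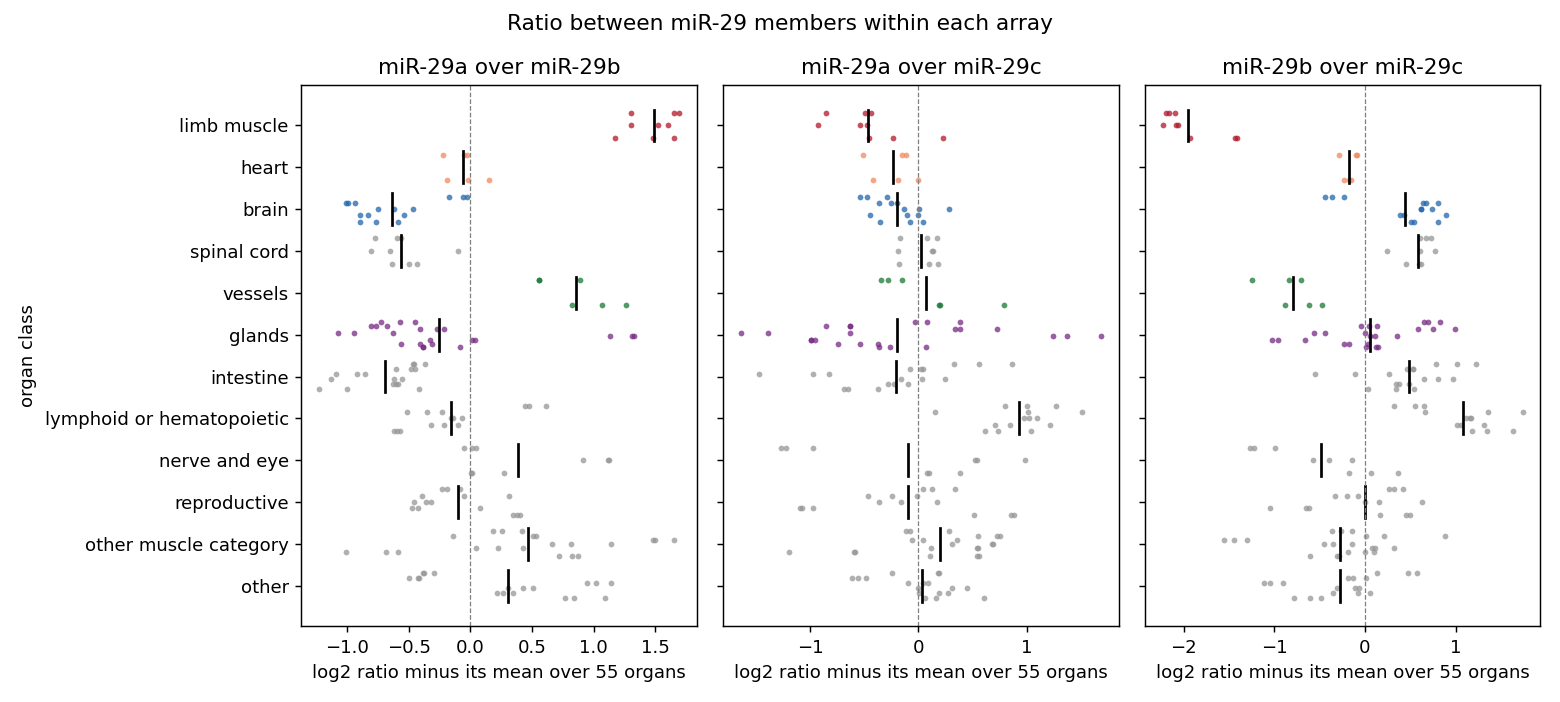
Log2 ratio between members on each perfused array, minus the mean of that ratio over 55 organs, by organ class (points: 165 arrays, 1 row of 3 rats per organ; black bars: mean of the organ means). Limb muscle and vessels lie to the right for miR-29a over miR-29b and to the left for miR-29b over miR-29c, brain lies the other way apart from cerebellum, and glands spread over the whole range of miR-29a over miR-29c.

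**Figure D3:**
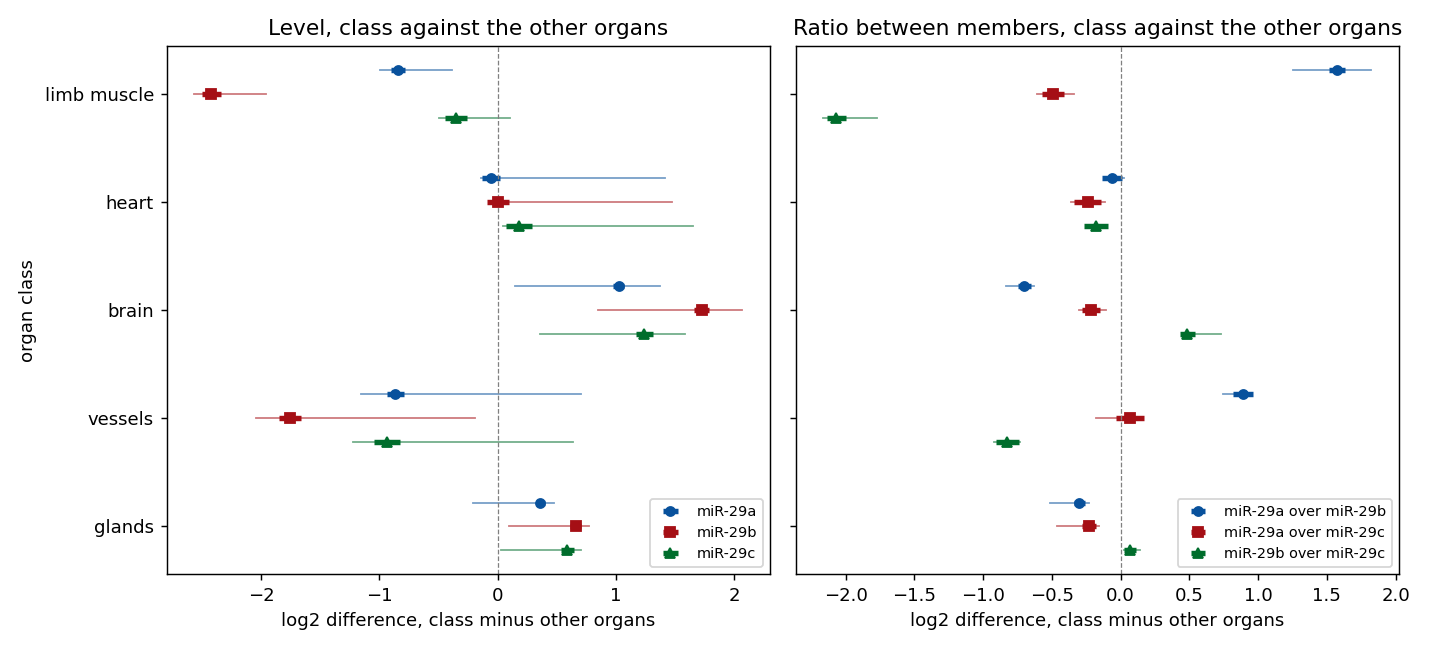
Log2 difference between each class and the other organs for levels (left) and ratios (right), as estimate (symbols) with SE (thick bars), and the lowest to highest value over the processing settings tried (thin lines). Level ranges cross 0 for miR-29a in heart, vessels and glands, for miR-29b in heart and for miR-29c in limb muscle and vessels, whereas the ratios of miR-29a over miR-29b and miR-29b over miR-29c stay on their side in limb muscle, brain and vessels.

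Counted over all 55 organs, miR-29b led in 23, miR-29a in 16 and miR-29c in 16, where leading means the highest log2 level relative to the member's own mean over organs. For single rats the mean over organs of that rat was used. The leader was the same in all 3 rats in 20, 11 and 12 of these. Such a count depends on the choice of the 55 organs, and it is given as a description. Organs that were not contrasted fell into recognisable groups. In the intestinal mucosa miR-29b led in 5 of 6 organs, in all 3 rats each, with miR-29c ahead in duodenum in 2 of 3 rats. In lymphoid or hematopoietic organs miR-29c was last in 5 of 5, in all 3 rats each, and the miR-29b to miR-29c ratio lay between 0.32 and 1.74. Thymus had the highest such ratio of all organs (1.18, 1.35 and 1.64), and the lymph nodes and spleen came next. In eyeball and seminal vesicle miR-29c led in all 3 rats, by 1.15 and 0.77. In liver, miR-29b lay 0.69 below its mean over organs with miR-29a and miR-29c 0.34 and 0.33 above theirs.

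Within the family, miR-29a and miR-29b followed each other over the 55 organ means with Pearson r = 0.82 and Spearman rho = 0.80, miR-29b and miR-29c with r = 0.71 and rho = 0.71, and miR-29a and miR-29c with r = 0.70 and rho = 0.67. These are descriptions over organs of the same 3 rats, which share arrays and scale. By the same measure, among 140 miRNAs outside the family that were detected on at least 50% of perfused arrays, those most like miR-29a were miR-7a (r = 0.63), miR-148b-3p (0.58) and miR-342-3p (0.56). miR-29b was most like miR-148b-3p (0.80), miR-7a (0.67) and miR-185 (0.60). miR-29c was most like miR-148b-3p (0.61), miR-582 (0.57) and miR-136 (0.48). At the other end, miR-27a was least like miR-29a (r = -0.70) and miR-29c (r = -0.59), and miR-214 was least like miR-29b (r = -0.76). The pairs within the family were thus alike at r = 0.697 or more, and only miR-148b-3p with miR-29b came as close from outside it.

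Among the passenger strands a single one was measurable. miR-29a*, miR-29b-1* and miR-29b-2* were detected on 0 of 180 arrays. miR-29c*, the passenger strand of Mir29c, was detected on 155 of 180 arrays and, in perfused rats, in all 3 animals of 45 organs. It was detected in none of the 3 animals in pancreas, testicle, liver, bone marrow and thymus. Its organ means followed those of miR-29c with r = 0.80 and rho = 0.80 over 55 organs, which include those where it was not detected. It was highest in thalamus (156 ± 8.85), Pituitary gland (137 ± 7.41) and hippocampus (131 ± 17.7). The largest class difference was in brain, where it rose by 1.85 on the log2 scale (SE 0.07), limma adjusted p = 3.62e-52, a call kept with 1 mean per organ as the unit (adjusted p = 1.69e-04). In vessels it stood at -0.85 (SE 0.10, adjusted p = 4.19e-13), but at 0.71 when all miRNAs set the scale, at 0.53 after quantile normalization and at 0.82 in the authors' table. In glands it stood at 0.73 (SE 0.05, adjusted p = 2.87e-25) with pancreas, where it was not detected, and at 0.68 (SE 0.05, adjusted p = 1.17e-22) without it. The gland contrast with pancreas was 0.16 when all miRNAs set the scale and -0.09 in the authors' table.

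In limb muscle miR-29c* rose by 0.71 (SE 0.08), adjusted p = 1.42e-13 (0.31 and not called under normexp, adjusted p = 0.136, and not called with 1 mean per organ, adjusted p = 0.819), while miR-29c fell by 0.35 (0.09 and 0.11 above the other organs when all miRNAs set the scale and in the authors' table). miR-29c* read 79.7 ± 5.94 in femoris muscle and 77.9 ± 18.1 in gastrocnemial muscle, ranks 10 and 11 of the 55 organs, where miR-29c ranked 32 and 27. In musculus soleus it read 34.5 ± 13.0. The difference between the 2 strands was not tested.

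**Figure D4:**
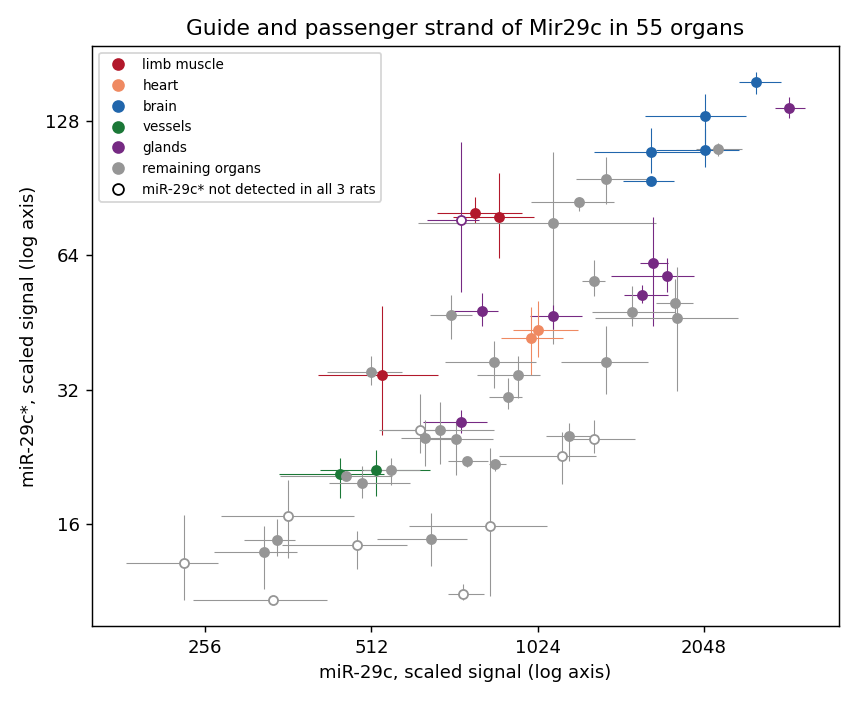
Mean scaled signal of miR-29c* against that of miR-29c in 55 organs of perfused rats (log axes), with bars from the lowest to the highest of 3 rats and open symbols where miR-29c* was not detected in all 3. The points rise together (r = 0.80, open symbols included), with brain regions and Pituitary gland at the upper right. Of the limb muscles, 2 lie above other organs of like miR-29c apart from pancreas, where miR-29c* was not detected.

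Other miRNAs linked to the extracellular matrix or fibrosis were followed as a list of 8: miR-21, miR-24, miR-30c, miR-133a, miR-192, miR-199a-3p, miR-200b and miR-214. In brain, where the family was high, 1 of the 8 rose and 7 fell, with a median log2 difference of -1.93 against -0.15 over all miRNAs tested. miR-214 and miR-199a-3p, which are abundant in mesenchymal cells, fell there, with log2 differences of -3.27 (SE 0.12) and -4.04 (SE 0.13). In vessels, where miR-29b was low, 3 rose and 5 fell (median -0.73 against -0.41), and the 3 were miR-214 (2.40 ± 0.18, SE), miR-199a-3p (1.96 ± 0.20, SE) and miR-24 (0.82 ± 0.06, SE). In limb muscle 5 rose and 3 fell (median 0.74 against -0.24), with miR-214 at 1.59 and miR-199a-3p at 1.65, and with miR-133a, which is also a muscle marker, at 6.23. In heart 4 rose, 3 fell and 1, miR-214, was not called (median 0.32 against -0.41), and in glands 2 rose and 6 fell (median -0.26 against 0.00). All counts are from limma with adjusted p under 0.05, and the shares of all miRNAs called in each direction at this scale are given above. They depend on the scale. When all miRNAs set it, 5 rose and 3 fell in vessels (36.5% of all miRNAs tested rose and 42.9% fell in that setting), 5 rose and 2 fell in heart (39.4% and 43.5%), 1 rose and 7 fell in glands (29.6% and 58.3%), 0 rose and 8 fell in brain (31.6% and 64.9%), and limb muscle kept 5 and 3 (30.1% and 53%). In vessels 6 rose and 2 fell in the authors' table, where 37.5% of all miRNAs rose and 29.4% fell. With 1 mean per organ as the unit, 4 of the 8 fell in brain, where 8.99% of all miRNAs fell, 1 rose in limb muscle, where 3.48% rose, and none was called in the other 3 classes, where 0% to 4.93% of all miRNAs were called.

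Perfusion with saline removes blood from the organ, and whether blood contributed to the family's levels was addressed by the 5 organs taken with and without it. None of the 15 comparisons (3 members in 5 organs) was called by limma, and none had an unadjusted p under 0.05. The same test called 0% of 191 miRNAs in each organ, with 3 to 12 of them under 0.05 before adjustment. Since it called no miRNA at all, the absence of calls says little about the family. The paper describes the blood miRNAs miR-451 and miR-144 as clearly evident without perfusion but not with it. The differences, perfused minus not perfused, lay between -0.18 and 0.13 on the log2 scale. The largest was miR-29a in kidney, at 2299, 2189 and 2118 in perfused and 2417, 2597 and 2448 in not perfused rats, without overlap (-0.18, SE 0.09, exact two-sided permutation p = 0.1, the smallest that 3 against 3 allows, and limma adjusted p = 1). Its value in perfused rat 6 was the scaling percentile itself, and with the family left out of the scaling set it read 2353, 2701 and 1900 in perfused and 2574, 2651 and 2728 in not perfused rats, which overlap (-0.21, SE 0.13, adjusted p = 1). miR-29b was likewise the percentile on the kidney arrays of rats 1, 3 and 5. miR-29b in lung read 1025 ± 156 in perfused and 1023 ± 202 in not perfused rats (SD, n = 3 each), and in liver the groups differed by -0.07 (SE 0.13). miR-29a in atrium was the scaling percentile on all 6 arrays and gives no measurement of perfusion. It was also the percentile in septum of rats 2, 3, 5 and 6 and in lung of rats 3 and 6. With the family left out of the scaling set, the miR-29a difference was 0.05 (SE 0.13) in septum and -0.02 (SE 0.13) in lung. A difference of the perfusion effect between organs was not called for any member (limma F test, adjusted p = 1 for each).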

How the data were processed

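Intensities in the scanner files were produced by the authors with Agilent Feature Extraction 10.7.3 (per the labels) as background-subtracted processed signal per spot, without normalization. The deposited table holds intensity values that the authors scaled by a factor of 0.411 to 10.5 per array (75th percentile method, per the methods), and served as an alternative. Spots flagged as outliers were left out, spots were averaged per probe and probes per miRNA, values were scaled to the 75th percentile of 37 miRNAs detected on all arrays, floored at 10.8 and taken to log2. Detection means that more than 50% of the spots kept were well above background.

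A mean per organ was fitted with limma 3.58.1 (R 4.3.3), and each class was contrasted with all other organs over the 345 miRNAs detected in all 3 rats of at least 1 organ. Ratios were fitted likewise after subtracting miR-29a or miR-29b on each array. The Benjamini-Hochberg adjustment took in every miRNA tested, calls needed an adjusted p under 0.05, and p-values measure the spread between 3 rats within these organs. Exact permutation tests used scipy 1.17.1. The fits were tested on simulated data. Same numbers mark the same rat, and residuals of the same rat correlated at 0.05 on average, against -0.02 between rats, and at 0.17 on the same slide against 0.03 on other slides. On 8 arrays titled rat 5 (the limb muscles, spinal cord levels, Pituitary gland and medulla oblongata) a second label says rat 6, and the title was used. Scanning took 3 days that largely follow the rats. Named were the members, their passenger strands, the 3 miRNAs most like each member, and the matrix list by counts with examples. Members are defined by name, and the family, lists and classes were chosen with earlier results of these data known.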

Additional observations from a re-analysis of the deposited data

How the results depend on the processing

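Of 31 results under 588 alternative values, 526 kept direction and side of the threshold, and 7 results did so under every alternative: the miR-29b level and its ratios to miR-29a and miR-29c in limb muscle, the 3 levels in brain, and the absence of perfusion calls. The last says little about the family, since the perfusion test called 0 of 191 miRNAs in each organ. Changes below are log2 differences, and their cause was not tested. In heart, limb muscle and vessels the percentile over all miRNAs rests on miRNAs that were not detected. With the 75th percentile over all miRNAs, miR-29a was -0.21 in glands, 1.41 in heart and 0.70 in vessels, miR-29b was 0.093, 1.47 and -0.19, miR-29c was 0.025, 1.65 and 0.64, and miR-29c in limb muscle was 0.086. The authors' table gave -0.045, 1.11 and 0.48 for miR-29a in glands, heart and vessels, 1.17 for miR-29b in heart, and 1.35, 0.11 and 0.41 for miR-29c in heart, limb muscle and vessels. Quantile normalization gave 0.10 and 0.40 for miR-29a and miR-29c in heart, and -0.11 and -0.18 for the miR-29a to miR-29c ratio in brain and vessels. The dimmest probe sequence, chosen after seeing the data, gave heart levels of 0.24, 0.21 and 0.43 and a miR-29a to miR-29b ratio of 0.026. Normexp gave -0.035 for miR-29b in heart and -0.11 and -0.17 for the miR-29a to miR-29c ratio in brain and heart. miR-29b in heart was also -0.076 with the family left out of the scaling set, -0.00050 with slide as a random block and -0.032 with the not perfused arrays added.

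The miR-29b to miR-29c ratio in heart crossed the threshold in 7 of 19 alternatives. They included -0.18 (percentile over all miRNAs), -0.25 (quantile), -0.22 (dimmest probe), -0.21 (slide) and -0.17 (not perfused arrays added). They also included -0.18 with rat as a replicate block, which changed no other call. With 1 mean per organ the estimates stayed and calls were lost for miR-29a (glands 0.36, limb muscle -0.84, vessels -0.86), miR-29b (glands 0.66, vessels -1.76), miR-29c (glands 0.59, limb muscle -0.35, vessels -0.93), miR-29a over miR-29b (brain -0.70, glands -0.30, vessels 0.89), miR-29a over miR-29c (brain -0.21, glands -0.23, heart -0.24, limb muscle -0.49) and miR-29b over miR-29c (brain 0.49, vessels -0.82). Leaving out 1 rat gave -0.067 to 0.040 for miR-29b in heart, -0.44 to -0.23 for miR-29c in limb muscle (adjusted p = 0.0584 without rat 6), -0.11 to 0.0018 for miR-29a over miR-29b in heart, -0.36 to -0.11 for miR-29a over miR-29c in heart, -0.041 to 0.15 for that ratio in vessels, and 0.025 to 0.14 in glands (adjusted p = 0.0301 without rat 5) and -0.24 to -0.11 in heart for miR-29b over miR-29c. The miR-29c level in heart then ran from 0.046 (without rat 6) to 0.28 (without rat 4).

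Background correction by normexp moved the median of all miRNAs by -0.83 in vessels, and of the scalings the authors' table moved it most, by -0.69 in brain. Arrays of pancreas carried the weakest signal, and 3 rats limit the precision of every organ mean.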
